A study of Mus musculus with 2 samples.

Results

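The genes described here encode lymphotoxin beta (Ltb), lymphotoxin alpha (Lta) and tumour necrosis factor (Tnf), together with the TNF receptor-associated factors Traf1 to Traf6. They were taken by name, and every probe set annotated to exactly 1 of these 9 symbols was used. This gave 11 probe sets for 8 genes, out of 20380 such probe sets for 12393 genes on the array. Traf3 was not measured here by a probe set naming it alone. All 11 probe sets carried the plain _at suffix of the array design, and 0 further probe sets named a member together with another gene.

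The cells were B cells of the spleen of unmodified mice, sorted by flow cytometry for surface IgM and IgD. There was 1 group, wild type for Srf and given no treatment in the labels, with 2 samples of 1 array each. The series was designed to set such cells against cells lacking serum response factor, and those arrays were not analysed here. The labels give no age, strain or sex, and leave it unstated whether they are from different mice, on which the sex-linked genes given below bear.

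Lymphotoxin alpha and beta form a membrane-bound heterotrimer that engages the lymphotoxin beta receptor, and on B cells this complex is known for keeping the follicular dendritic cell network and the follicles of the spleen in place. TNF and secreted lymphotoxin alpha act instead through the TNF receptors. The receptors have no enzymatic activity of their own and recruit TRAF proteins, most of which carry a RING domain and a C-terminal TRAF domain, to switch on the canonical and the alternative NF-kB pathways. In B cells TRAF2 and TRAF3 also hold the NF-kB-inducing kinase at a low level, while TRAF6 serves CD40 and the Toll-like receptors.

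The ligand genes are neighbours on mouse chromosome 17 in the RefSeq table for GRCm38.p6, where no other protein-coding gene lies between them. Of these neighbours, Ltb was above the floor on both arrays and Lta and Tnf were not, as given below. The 250 bases before each start are shown from RefSeq, 5′ to 3′ on the strand of the gene, with matches to the motifs searched in capitals. All 9 members matched the promoter table, and Traf5, an adaptor gene above the floor on both arrays, is shown beside the ligands. The windows are chr17:35194257-35194506 on the plus strand for Ltb, chr17:35205352-35205601 on the minus strand for Lta, chr17:35202008-35202257 on the minus strand for Tnf and chr1:192092600-192092849 on the minus strand for Traf5.
Ltb: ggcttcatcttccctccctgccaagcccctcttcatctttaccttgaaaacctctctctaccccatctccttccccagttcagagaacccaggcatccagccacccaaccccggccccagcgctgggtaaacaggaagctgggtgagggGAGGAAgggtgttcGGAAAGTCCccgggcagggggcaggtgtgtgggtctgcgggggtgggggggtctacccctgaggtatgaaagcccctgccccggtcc
Lta: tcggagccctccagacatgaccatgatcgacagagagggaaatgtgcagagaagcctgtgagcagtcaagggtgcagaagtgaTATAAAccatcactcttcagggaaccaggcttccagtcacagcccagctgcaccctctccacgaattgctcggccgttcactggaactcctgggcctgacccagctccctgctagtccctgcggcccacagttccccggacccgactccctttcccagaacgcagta
Tnf: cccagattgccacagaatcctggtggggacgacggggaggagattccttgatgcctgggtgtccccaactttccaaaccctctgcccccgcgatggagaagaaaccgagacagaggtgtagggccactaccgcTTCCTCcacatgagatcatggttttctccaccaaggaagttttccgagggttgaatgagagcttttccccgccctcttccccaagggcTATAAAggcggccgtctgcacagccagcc
Traf5: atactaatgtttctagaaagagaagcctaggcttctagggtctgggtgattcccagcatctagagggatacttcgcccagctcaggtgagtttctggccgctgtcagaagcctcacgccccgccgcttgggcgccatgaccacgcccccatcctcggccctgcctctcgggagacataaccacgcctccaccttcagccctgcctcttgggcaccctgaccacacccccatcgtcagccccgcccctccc

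The motifs were TATAAA for the TATA box, GGNNTTTCC for NF-kB, TGANTCA for AP-1 and GAGGAA for Ets factors, each on both strands, and the CArG box bound by SRF, by name. The Ltb window held an NF-kB match from 87 to 79 bases before the start and an Ets match from 101 to 96 bases before it. The Tnf window held a TATAAA from 29 to 24 bases before the start, and that of Lta had one from 167 to 162 bases before it. No match overlapped another within a member's window.

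Over all members, TATAAA was found in 2 of 9 windows (Lta and Tnf), against 12.4% of 32841 promoter windows of the same length. The NF-kB motif was found in 2 (Ltb and Traf3), against 4.93% of all windows, and the Ets motif in 4 (Ltb, Tnf, Traf2 and Traf6), against 23.3%. AP-1 and CArG motifs were found in 0 of 9, against 6.75% and 1.47% of all windows. The ligand windows held 6 CpG dinucleotides for Ltb, 9 for Lta and 10 for Tnf, and that of Traf1 held 4. The windows of Traf2, Traf3 and Traf4 held 19, 49 and 22, those of Traf5 and Traf6 held 12 and 13, and the median over all windows was 6. A match describes the letters of the window and says nothing of a factor bound there.

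**Figure D1:**
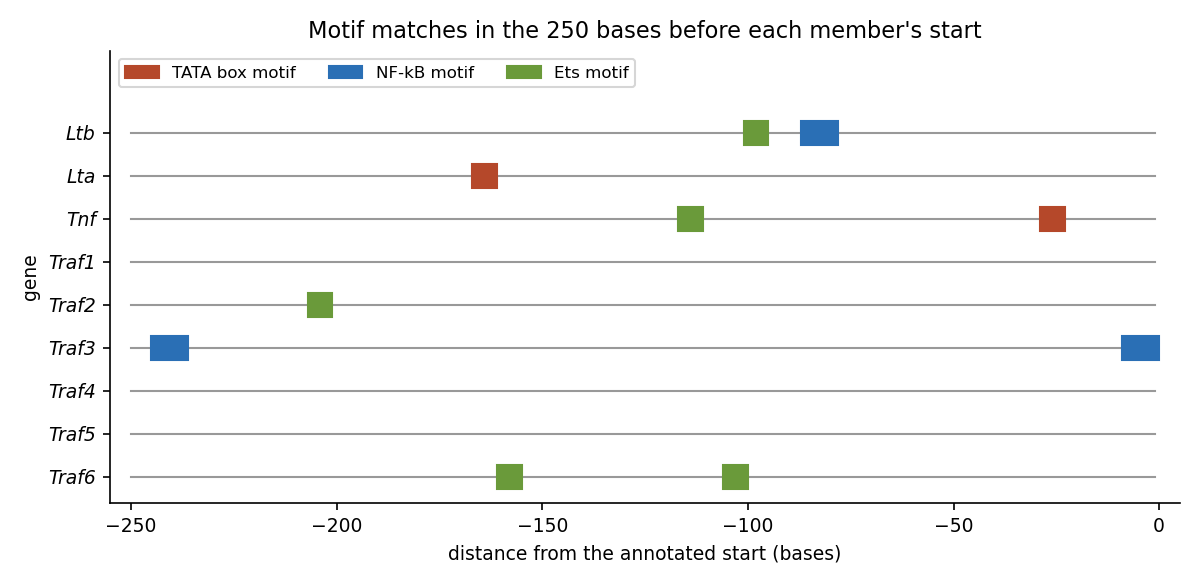
Positions of motif matches in the 250 bases before the annotated start of each member (x axis, distance in bases; 1 row per gene). Coloured boxes are matches to the TATA box, NF-kB and Ets motifs on either strand; Lta and Tnf hold the TATA matches, Ltb and Traf3 the NF-kB matches, and Traf1, Traf4 and Traf5 hold none.

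The deposited values are MAS5 signals, a linear intensity per probe set after each array is multiplied by 1 factor. A signal was read against a floor, set at the 90th percentile over 57 genes typical of other organs (94 probe sets), which was 183 on replicate 1 and 108 on replicate 2. By this floor 8 of 9 measured B cell markers were above it on both arrays, as were 1 of 11 T cell, 0 of 8 NK cell, 2 of 13 monocyte and macrophage, 2 of 7 neutrophil and 0 of 5 dendritic cell markers. Over all genes this share was 27.1%. The highest B cell marker, Ighm, gave 9959 on replicate 1 and 15633 on replicate 2 by its brightest probe set. Of the 8 B cell markers, replicate 1 was over 2-fold higher for 1, replicate 2 for 2 (Cr2 and Ebf1), and 5 lay within 2-fold. The 1 was Cd79a, 15.3-fold higher on replicate 1, with 2931 and 191.8. Pax5, the marker that did not pass, gave 21.5 and 15.6, below the floor on both. These 4 genes were named after their values were seen. The arrays stood apart in several respects. Xist gave 740.4 on replicate 1 and 15.3 on replicate 2 by a probe set above the floor of replicate 1 alone, and the Y-linked Eif2s3y gave 3.4 and 248.7, so the samples differed as cells of a female and a male mouse do and were not repeats of 1 mouse. The 3′ to 5′ signal ratio of the Actb control was 3.57 on replicate 1 and 8.15 on replicate 2. That of Gapdh was 1.31 and 61.1, where its 5′ signal on replicate 2, 13.5, was below the floor. The part of these differences in the values below was not tested.

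Ltb had a signal well above the floor in both samples. Of 8 measured members, 3 were above the floor on both arrays: Ltb, Traf5 and Traf6. This is 37.5% of the members, against 27.1% of all genes, and by probe set it was 3 of 11, or 27.3%, against 21.6% of all probe sets. A gene with more probe sets is above the floor more often by this rule, 18.7% of genes with 1 probe set and 45.4% of those with 3, and Traf6 had 3. On replicate 1 alone 3 members were above the floor, against 35.6% of all genes, and on replicate 2 alone 5 were, against 42.6% of all genes. In this bulk RNA, fewer cells expressing a gene and less RNA per cell cannot be told apart.

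**Figure D2:**
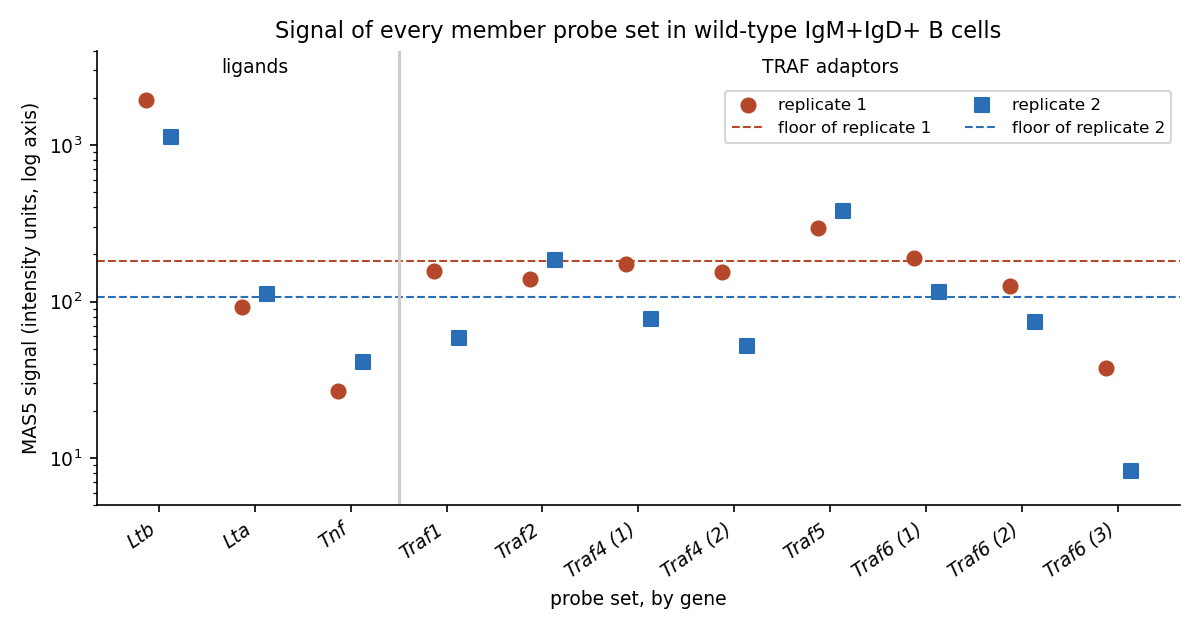
MAS5 signal (y axis, intensity units on a log scale) of each of the 11 member probe sets (x axis, numbered where a gene has several) on replicate 1 (circles) and replicate 2 (squares), with the floor of each array as a dashed line in its colour. Both Ltb points lie about 10 times above their floors (10.7 and 10.4), Traf5 lies above both, and Tnf lies below both.

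Ltb, the membrane-anchoring subunit of the lymphotoxin heterotrimer, read 1952 on replicate 1 and 1119 on replicate 2, and averaged 1535 ± 589 (SD, n = 2). Both values were far above the floor, at 10.7 and 10.4 times it. The signal was 1.74-fold higher on replicate 1, a log2 difference of 0.80. Between the arrays, log2 signals had a pooled SD of 0.64 over all probe sets above the floor on both, and with 2 samples of 1 group no difference could be tested. Divided by the floor of each array, the difference in Ltb was 0.04, and it was 1.41 after quantile normalization.

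T cells also express Ltb, although the sort for surface IgM and IgD was meant to leave them out. How fully it did so was not measured here. Their defining marker Cd3e gave 31.1 on replicate 1 and 16.1 on replicate 2, below the floor on both. The only T cell marker above the floor on both arrays was Zap70, with 476 and 268 by its brighter probe set. Its other probe set gave 37.8 and 43.5, below the floor on both. The summed signal of the 11 measured T cell markers was 1103 on replicate 1 and 708 on replicate 2, and 0 of the values were at 0. As 10 of the 11 did not pass both floors, this sum holds mostly values at background, whose floor was also higher on replicate 1. The part of T cells in the Ltb signal was not tested.

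Lta, which encodes the secreted subunit that completes the heterotrimer, gave 91.8 on replicate 1 and 112 on replicate 2. It was below the floor on replicate 1, at 0.503 times it, and just above it on replicate 2, at 1.04 times. Tnf, the inflammatory cytokine gene, gave 26.7 and 41.1, which was 0.146 and 0.381 times the floor. Each of these genes had 1 probe set, and neither was above the floor on both arrays. A probe set below the floor gives only a bound on its gene. Because probes differ in how well they bind, no signal was set against that of another gene as an RNA level.

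Tnf is known as an immediate early gene of activated lymphocytes. Of 12 other measured genes of that class, 8 passed the floor of each array, against 27.1% of all genes. All 8 were over 2-fold higher on replicate 1 (7 after median centring), against 10.1% of all genes so placed (1.93% after median centring). Of the rest, Egr2 and Ier3 were higher on replicate 2 by their brightest probe sets, and Atf3 and Fosb on replicate 1. The summed signal of the class, over the brightest probe set of each of the 12, was 28041 on replicate 1 and 2747 on replicate 2. On replicate 2 several of them lay close to the floor, such as Dusp1 at 118 and Nr4a1 at 135 (named after their values were seen). Tnf lay below the floor on each array, so it was left out of the main count of members over 2-fold apart.

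Monocytes and macrophages are another source of TNF in the spleen. The same sort was meant to leave them out, and how fully it did so was not measured here. Of their 13 markers, 2 were above the floor on both arrays, Csf1r with 286 and 249 by its brightest probe set and Lyz2 with 291 and 178. The other Csf1r probe sets were in conflict between the arrays, with 208.6 and 15.2, and 23.2 and 96.7. Neither passed both floors. The summed signal of the 13 was 1332 on replicate 1 and 1186 on replicate 2. That of the 8 NK cell markers was 639 and 443, and the defining Ncr1 gave 62.2 and 17.7, below the floor on both. For neutrophils the sums were 971 and 948, where Ngp with 327 and 187 and S100a9 with 205 and 229.9 passed both floors. These close sums hold opposite differences, with S100a8 at 164.4 and 449.9 and Ltf at 203.2 and 8.5 (named after their values were seen). The monocyte and macrophage sum and the neutrophil sum also include markers that did not pass both floors. For dendritic cells the sums were 481 and 210. As no NK cell or dendritic cell marker passed both floors, their sums hold mostly values at background, whose floor was higher on replicate 1. The part of any of these cell types in the Tnf signal was not tested.

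Traf5, a close relative of Traf2 that joins CD40 and the lymphotoxin beta receptor, gave 295 on replicate 1 and 376 on replicate 2, and averaged 336 ± 57.8 (SD, n = 2). It was 1.61 times the floor on replicate 1 and 3.49 times the floor on replicate 2. The signal was 1.28-fold higher on replicate 2, a log2 difference of -0.35 for replicate 1 minus replicate 2, which is 0.553 of the pooled SD. Traf2, which brings the ubiquitin ligases cIAP1 and cIAP2 to the receptor, gave 139 and 185. It was above the floor on replicate 2 alone, at 1.72 times it, and at 0.763 times the floor on replicate 1.

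Traf6, a ubiquitin ligase downstream of CD40, the interleukin-1 receptor and Toll-like receptors, had 3 probe sets that did not give the same picture. The brightest gave 190 on replicate 1 and 115 on replicate 2, and averaged 153 ± 52.8 (SD, n = 2). This was 1.04 and 1.07 times the floor, so its place above the floor was marginal. The second gave 125 and 73.6 and the last 37.7 and 8.3, all below the floor. With a floor at the 95th percentile, or with the higher floor used for both arrays, Traf6 was no longer above it on both, while Ltb and Traf5 still were.

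Traf1 and Traf4 were below the floor in both samples. Traf1, itself an NF-kB target gene that lacks the RING domain of its relatives, gave 157 on replicate 1 and 58.9 on replicate 2. Traf4, the member least tied to immune receptors and better known from epithelial cells, gave 174 and 77.1 by its brighter probe set and 155 and 52.3 by the other. All of these values were higher on replicate 1, but as they lay below both floors they were left out of the main count of members over 2-fold apart. Among the 11606 probe sets that passed neither floor, 61.6% differed by more than 2-fold, with a median log2 difference of 0.78, so such differences were common among dim probe sets.

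By the brightest probe set, 0 of the 3 members that passed both floors differed by more than 2-fold. Among all 3312 genes so placed, replicate 1 was over 2-fold higher in 10.1% and replicate 2 in 14.9%. After centring each array on its median, which lowers every difference by 0.63 on the log2 scale, these shares were 1.93% and 36.4%. The median difference of the 8 members was 0.22, against 0.31 over all genes, both from the brightest probe set and without a floor. Of the 11 probe sets, 7 were higher on replicate 1, and 4 were higher on replicate 2: Lta, Tnf, Traf2 and Traf5. The brightest Traf6 probe set changed sign, to -0.04, when each array was divided by its floor.

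**Figure D3:**
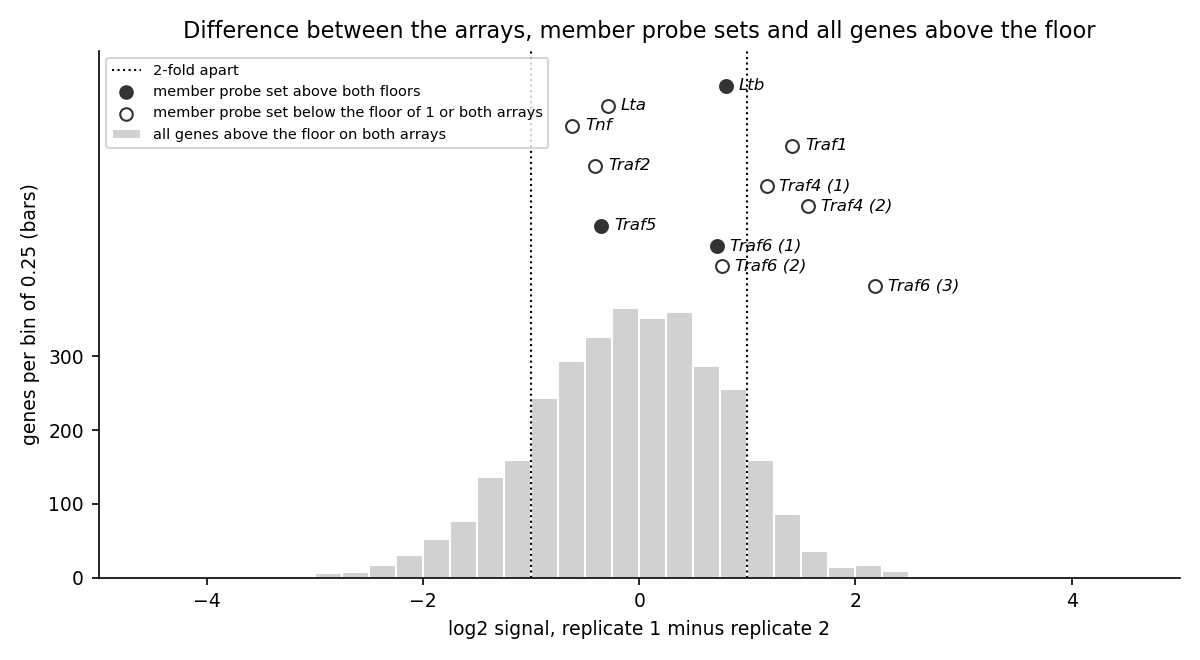
Log2 signal of replicate 1 minus replicate 2 (x axis) for the member probe sets (points, stacked by gene; filled where above both floors) over the distribution of the 3312 genes above the floor on both arrays (bars, genes per bin). The filled points of Ltb, Traf5 and Traf6 lie within the dotted 2-fold lines, and the open points of Traf1, Traf4 and the dimmest Traf6 probe set lie to the right of them.

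Around the members, 43 genes of the pathway were listed by role, and 36 were measured by a probe set naming 1 gene. Of these 16 were above the floor on both arrays, or 44.4%, against the 27.1% of all genes. Many of the pathway genes had several probe sets, and such genes pass more often by this rule. Over all genes, 33.1% of those with 2 probe sets and 45.4% of those with 3 passed, so 27.1% is not a like background. The same limit applies to each count by role below. By the brightest probe set, replicate 1 was over 2-fold higher for 3 of the 16, replicate 2 for 3, and 10 lay within 2-fold. With quantile normalization these counts were 2, 1 and 13, and with median centring 0, 8 and 8. The 7 genes not measured here were Ripk1, Chuk, Irak4, Traf3ip1, Traf3ip3, Cyld and Nfkb1.

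Receptors of the ligands were above the floor in 2 of 4 cases, against 27.1% of all genes. Tnfrsf1b, which encodes TNF receptor 2, gave 377 on replicate 1 and 170.5 on replicate 2, and Tnfrsf1a, which encodes TNF receptor 1, gave 241 and 109.8. Replicate 1 was higher by 2.21-fold and 2.19-fold, and both genes were within 2-fold after median centring, at log2 differences of 0.51 and 0.50. A second probe set of Tnfrsf1b, below the floor, was lower on replicate 1, with 25.5 and 56.1. Ltbr, the receptor of the lymphotoxin heterotrimer, is known from stromal and myeloid cells, and gave 122 and 138, above the floor on replicate 2 alone. It was named after its values were seen.

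Adaptors and kinases were above the floor in 5 of 16 cases, or 31.25%, close to the 27.1% of all genes. Birc3, which encodes the TRAF2-bound ligase cIAP2, gave 1481 on replicate 1 and 1664 on replicate 2, or 1573 ± 130 (SD, n = 2), by its brighter probe set. The other gave 173.4 and 107.2, below the floor on both. Tab2, a ubiquitin-binding partner of the kinase TAK1 downstream of TRAF6, gave 673 and 1212 by its brighter probe set. The other gave 170.4 and 159.5, above the floor of replicate 2 alone. Ikbkb, which encodes the kinase IKK-beta, gave 563 and 1347, and Irak1, a kinase that recruits TRAF6, gave 259 and 993. These were 2.39-fold and 3.83-fold higher on replicate 2, but 2 other probe sets of Irak1 above the floor gave 270.4 and 225, and 322 and 281, both slightly higher on replicate 1. Likewise 2 other probe sets of Ikbkb, above the floor of replicate 1 alone, were higher there, with 273 and 83.8, and 220.4 and 54.4.

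Among genes for TRAF-related and TRAF-binding proteins, 3 of 7 were above the floor, against 27.1% of all genes, and all 3 lay within 2-fold. Tnip1, a partner of the ubiquitin-editing protein A20, gave 570 on replicate 1 and 612 on replicate 2. Traf3ip2, which encodes the interleukin-17 receptor adaptor Act1, gave 255 and 348, and Traf7, a distant relative that lacks the TRAF domain, gave 242 and 313. The sheddase gene Adam17, whose product releases TNF from the membrane, was not above the floor on both arrays by any of its 3 probe sets. They were in conflict between the arrays, the brightest with 108 and 528.6 and another with 245 and 50.7 (a gene named after its values were seen).

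Of the brakes on the pathway, 2 of 4 were above the floor, against 27.1% of all genes. Nfkbia, which encodes the inhibitor of canonical NF-kB dimers, gave 2760 on replicate 1 and 5965 on replicate 2 by its brightest probe set, a 2.16-fold higher signal on replicate 2, while 2 of its 3 other probe sets were higher on replicate 1. Otud7b, a deubiquitinase that acts on TRAF3, gave 183 and 165, with the first value at the floor. Tnfaip3, which encodes A20, and Map3k14, which encodes the NF-kB-inducing kinase held down by TRAF2 and TRAF3, were singled out after their values were seen. Tnfaip3 gave 277 on replicate 1 and 3.9 on replicate 2, and Map3k14 gave 391 and 85.4 by its brightest probe set, so both were above the floor on replicate 1 alone.

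All 4 measured NF-kB subunit genes were above the floor on both arrays, against 27.1% of all genes. Rela and Relb, which carry the transactivation domains of the canonical and the alternative pathway, gave 841 and 749, and 240.3 and 230.4, on replicates 1 and 2. Nfkb2, whose product is processed downstream of the lymphotoxin beta receptor, gave 185 and 243 by its brighter probe set. The other gave 209.3 and 187.2, also above the floor on both. Rel was 3.09-fold higher on replicate 1, with 621 and 201, a log2 difference of 1.63, and it came just under 2-fold after median centring.

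**Figure D4:**
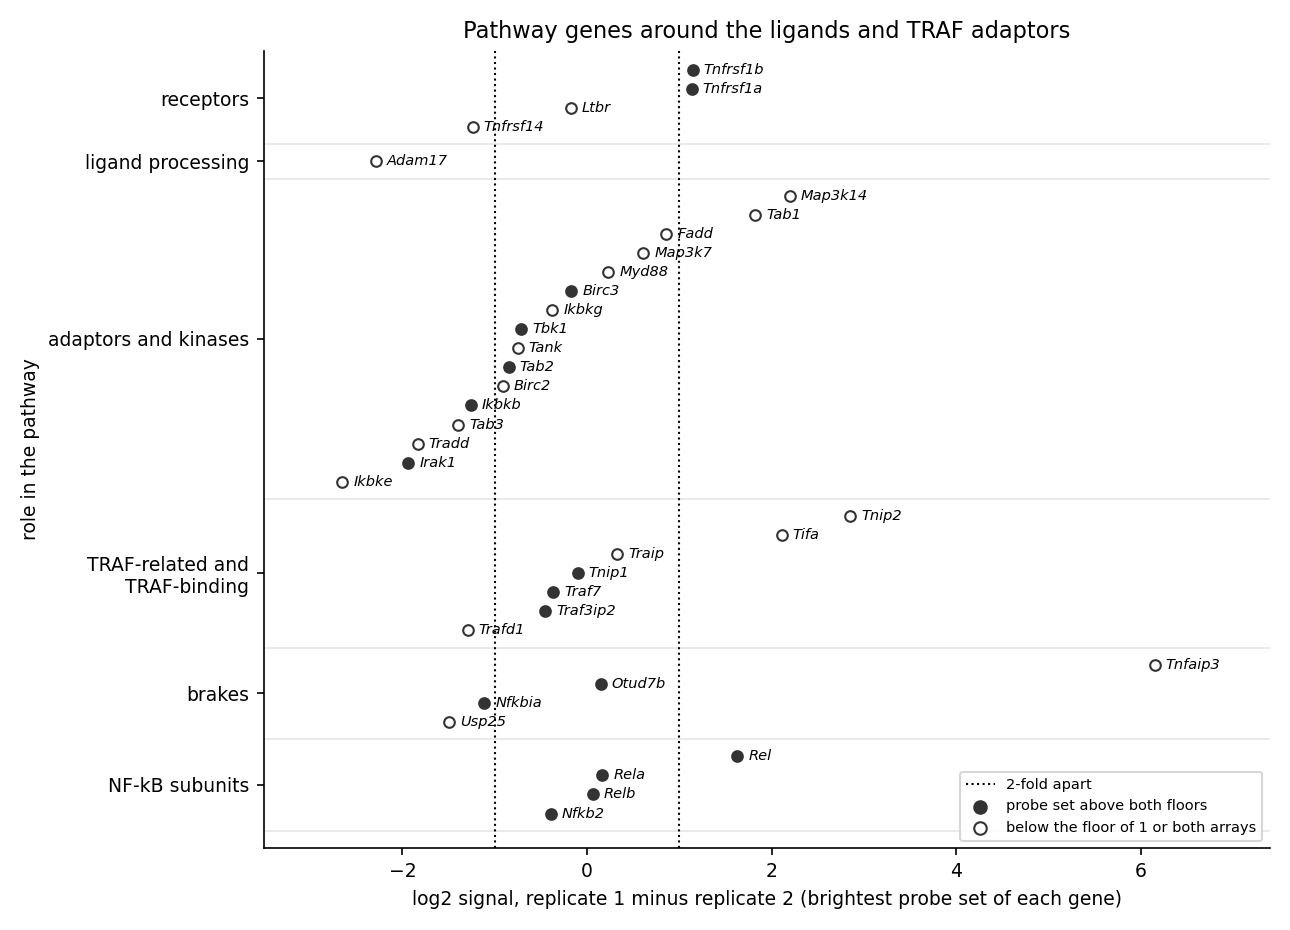
Log2 signal of replicate 1 minus replicate 2 (x axis) for the brightest probe set of each measured pathway gene, grouped by role (y axis); filled points are above the floor on both arrays and dotted lines mark 2-fold. The 2 TNF receptor genes and Rel lie right of the lines, Ikbkb, Irak1 and Nfkbia left of them, and the other 10 filled points between.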

How the data were processed

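Splenic IgM+IgD+ B cells of 2 wild-type samples were profiled on 1 array each. The authors deposited linear signal intensities from MAS5, per the submitters' processing notes, and its version and settings are not given in the sources used here. Trimmed of 2% at each end, the mean signals were 150.0 and 150.1, a common scale. No counts lie behind the values, detection calls were not used here, and precision is limited by having 2 arrays.

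Of 22626 gene probe sets, 20380 named 1 gene in the platform annotation, 691 several and 1555 none, and 64 control probe sets were left out. The 8 measured members had the same symbol in RefSeq. Each array's floor was set at the 90th percentile of probe sets for organ-restricted genes (57 of 62 listed were measured). A gene was above the floor if at least 1 probe set was, and its difference came from its brightest probe set by mean log2 signal. The fold threshold was 2. No p-value was computed, since 2 samples of 1 group allow no test. Calculations used Python 3.11.15, numpy 2.4.6 and pandas 2.3.3, tested on simulated data.

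Named genes were all members, the brightest genes above the floor in each pathway list, up to 4, those over 2-fold apart, and for each marker list its highest gene and the defining Cd3e, Csf1r and Ncr1 (1 further gene of the rule is not reported here). No gene was named for a pattern like a member's, since a correlation over 2 samples has no meaning. The members and lists were chosen with earlier results of these data known. The alternatives were other floors, quantile normalization, median centring, log2(signal + 32), means over probe sets, leaving out probe sets ending in _x_at, and no floor.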

Additional observations from a re-analysis of the deposited data

How the results depend on the processing

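The count of members above the floor was 3, and it was 2 with the 95th percentile, with 1 common floor or without probe sets ending in _x_at, each time Ltb and Traf5. No member probe set ends in _x_at, so in that last case Traf6 was lost through the floor, set again without such probe sets. With the array median as floor it was 5, and on single arrays it ran from 3 to 5 (5 without replicate 1, which adds Lta and Traf2). The pathway count of 16 ran from 11 to 24 under the other floors and without _x_at, and from 19 to 27 on single arrays. The count of members over 2-fold apart, 0, became 1 with quantile normalization (Ltb), 1 with the mean over all probe sets (Traf6), 1 with each array divided by its floor (Traf5, an alternative chosen after seeing the data) and 2 with no floor (Traf1 and Traf4). The cause was not tested. The median difference of the members, 0.22, ran from -0.42 with median centring to 0.26 under the alternatives of the methods, and was -0.55 with each array divided by its floor. By construction, median centring shifted every difference by 0.63 and division by the floor by 0.76, against a pooled SD of 0.64, and that division turned Traf6 to -0.04. Among the other alternatives, the difference of 1 member moved by more than the pooled SD, that of Tnf, below the floor on both arrays, to -1.40 with quantile normalization. The members' median was not run for averages of probe sets that pass both floors, since 3 members have one. Leaving out a sample gives no difference between arrays. No paired analysis was possible because there is 1 group. The 2 arrays limit every value above. Signals near the floor limit the calls of Traf6, Lta, Otud7b, Tnfrsf1a and Nfkb2.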

Other observations

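The control probe sets for the transcripts spiked into the hybridization (bioB, bioC, bioD and cre) were used in no comparison. All 18 were over 2-fold higher on replicate 1, by a median of 5.17-fold and from 3.39-fold to 13.2-fold. The signals of both arrays had been scaled to the same mean, so the ratio of spiked to cellular signal differed between them.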
